A study of Mus musculus with 20 samples.

Results

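Transcripts of 10 immediate early transcription factors were measured by RNA-seq in mouse tibiae. The genes were taken by symbol from the deposited table of 54446 genes and were Fos, Fosb, Fosl1, Fosl2, Jun, Junb, Egr1, Egr2, Egr3 and Atf3. Each symbol occurred once in the table. The tibiae came from male C57BL/6J mice aged 3 months that received dexamethasone (DEX), a synthetic glucocorticoid, at 1 mg/kg, or water, under the skin for 5 days. The left tibia was compressed along its axis at -13 N for 40 cycles per session, each held for 0.1 s and followed by 10 s of rest. The right tibia was left unloaded. This gave unloaded and loaded tibiae of vehicle-treated mice and unloaded and loaded tibiae of DEX-treated mice, with 5 libraries in each group. An unloaded tibia was therefore the opposite limb of a loaded animal, not the limb of an animal that was never loaded. The sample labels place loading on days 1 and 3, whereas the study's methods give 3 sessions and collection on day 5, 4 hours after the last one. The time between the last session and collection is therefore uncertain, and if the labels hold it was days rather than hours, which bears on every loading value of genes with such brief transcripts. The bone was pulverized after freezing. The study calls the mouse material cortical bone with periosteum, and the sources used here do not say whether the marrow was removed. The study's text counts the replicates of these data as mice, although no label ties a library to a mouse, and p-values measure the spread between these libraries.

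Immediate early genes are transcribed within minutes of a stimulus by factors already present in the cell, and most of their transcripts decay quickly. The FOS and JUN proteins pair through leucine zippers to form AP-1, which binds the site TGACTCA. EGR1, EGR2 and EGR3 are zinc finger factors that bind GC-rich sites, and ATF3 is a leucine zipper protein of the ATF/CREB family that is induced by stress. In bone, Fos and Egr1 are known for a fast and brief induction by mechanical load, and the ligand-bound glucocorticoid receptor is known to restrain AP-1.

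Of the Fos family, Fos lies on chromosome 12 (85473890 to 85477273), Fosb on chromosome 7 (19302696 to 19310051), Fosl1 on chromosome 19 (5447547 to 5455946) and Fosl2 on chromosome 5 (32135801 to 32157842) of GRCm38. Jun lies on chromosome 4 (95049034 to 95052222) and Junb on chromosome 8 (84974484 to 84978718). Egr2 lies on chromosome 10 (67535475 to 67542188), Egr3 on chromosome 14 (70077203 to 70082614) and Atf3 on chromosome 1 (191170296 to 191218039). Annotated genes on the opposite strand overlap 4 of them, namely Fosl1 (Ccdc85b, 2767 bases), Jun (Junos, 689 bases), Junb (Prdx2, 351 bases) and Atf3 (Gm24748, 108 bases). The library kit keeps strand, but the strand setting of the counting was not given in the sources used here, so the counts of these 4 genes are uncertain to that extent.

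The bases before the start sites of Fos, Fosb and Junb are shown because Fosb was the gene that passed the test in a comparison, and Fos and Junb were among the members whose levels ran most alike. They are RefSeq sequence of GRCm38.p6 in the direction of transcription, cut before the first annotated exon. Capitals mark TGACG, the core of the cAMP response element, and GCGGGGGCG, a site bound by EGR proteins.
Fos, chr12:85473640-85473889, plus strand: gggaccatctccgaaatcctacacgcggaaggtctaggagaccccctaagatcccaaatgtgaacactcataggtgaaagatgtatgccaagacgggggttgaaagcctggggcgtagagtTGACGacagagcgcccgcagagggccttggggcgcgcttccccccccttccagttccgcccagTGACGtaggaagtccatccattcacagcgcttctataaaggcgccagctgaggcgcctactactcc
Fosb, chr7:19310052-19310295, minus strand: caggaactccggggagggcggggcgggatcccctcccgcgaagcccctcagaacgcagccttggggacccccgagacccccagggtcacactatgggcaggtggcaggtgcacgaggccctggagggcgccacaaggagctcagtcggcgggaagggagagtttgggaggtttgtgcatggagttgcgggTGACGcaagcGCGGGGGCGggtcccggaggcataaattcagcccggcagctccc
Junb, chr8:84978749-84978998, minus strand: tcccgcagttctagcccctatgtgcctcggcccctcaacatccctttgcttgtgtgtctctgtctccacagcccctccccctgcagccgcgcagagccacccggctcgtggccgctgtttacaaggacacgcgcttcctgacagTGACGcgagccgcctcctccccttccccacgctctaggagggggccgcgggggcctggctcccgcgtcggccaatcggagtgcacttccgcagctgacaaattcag
For Egr2, the stretch around a CArG box, the site of serum response factor, is shown because no other member with a window held one there. The box is in capitals.
Egr2, chr10:67537787-67537816, plus strand: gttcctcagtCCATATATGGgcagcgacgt

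The RefSeq windows covered 7 of the 10 members with 11 windows of 300 bases, 50 of them after the start site. Fosl1, Egr1 and Egr3 had no window and were not searched, nor were bases further upstream of any member. Motifs were searched on both strands in all 32851 windows of the table. TGACG was found at positions -129 to -125 and -66 to -62 of Fos, -60 to -56 of Fosb and -106 to -102 of Junb, counted from the start site, and also in windows of Egr2 and Atf3. It occurred in 20.8% of all windows. GCGGGGGCG was found at -50 to -42 of Fosb and in the Fosl2 window, against 2.91% of all windows. A CArG box occurred in 1.63% of all windows and, among the members searched, in windows of Egr2 alone. TGACTCA, found in 5.20% of all windows, and TGACGTCA, which contains TGACG and was found in 1.79%, had no match in the members' windows. A match is a run of letters and not evidence of binding.

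Library totals ranged from 4641437 to 13032018 counts. Levels are given as CPM, counts scaled to library size, after TMM normalization over all 20 libraries. The vehicle libraries are numbered 1, 2, 4 and 5, and the other library of each vehicle group has a column number that matches no label and is called unnumbered. Reads on 1731 olfactory and vomeronasal receptor genes, which bone is not known to use, served as a measure of background. They summed to 338 to 1238 CPM in unloaded vehicle, 228 to 886 CPM in loaded vehicle, 789 to 3161 CPM in unloaded DEX and 1062 to 8611 CPM in loaded DEX libraries. The highest value and the lowest total both belonged to loaded DEX replicate 4. The study's text says that a DEX-4 data set was removed without naming the limb, and its plots show 4 unloaded and 5 loaded DEX values. Unloaded DEX replicate 4 was therefore left out of the tests, while its levels are shown. The labelled tissue was tibia. Markers of osteoblasts, the cells that form bone, were present in every library, and no marker of the 11 cell types examined was at 0 in any library.

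In unloaded vehicle tibiae, Jun had the highest level of the members per kilobase of exon, 23.2 ± 6.08 CPM per kb (SD, n = 5). Jun encodes the main JUN partner of AP-1. It was followed on the same scale by Fosl2 (11.02 ± 2.48), Egr3 (10.7 ± 2.19), Junb (7.34 ± 1.89), Egr1 (6.33 ± 0.802), Fos (4.38 ± 1.03), Atf3 (2.39 ± 1.03), Egr2 (1.18 ± 0.494), Fosl1 (0.922 ± 0.192) and Fosb (0.588 ± 0.253). Only Jun did not overlap the next gene in this order. All other neighbours overlapped, so their order is not resolved by these libraries. In raw counts, the lowest unloaded vehicle values were 9 counts for Fosb and 9 for Fosl1, whereas Fosl2 had 679 counts or more, so counting error is largest for Fosb and Fosl1.

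**Figure D1:**
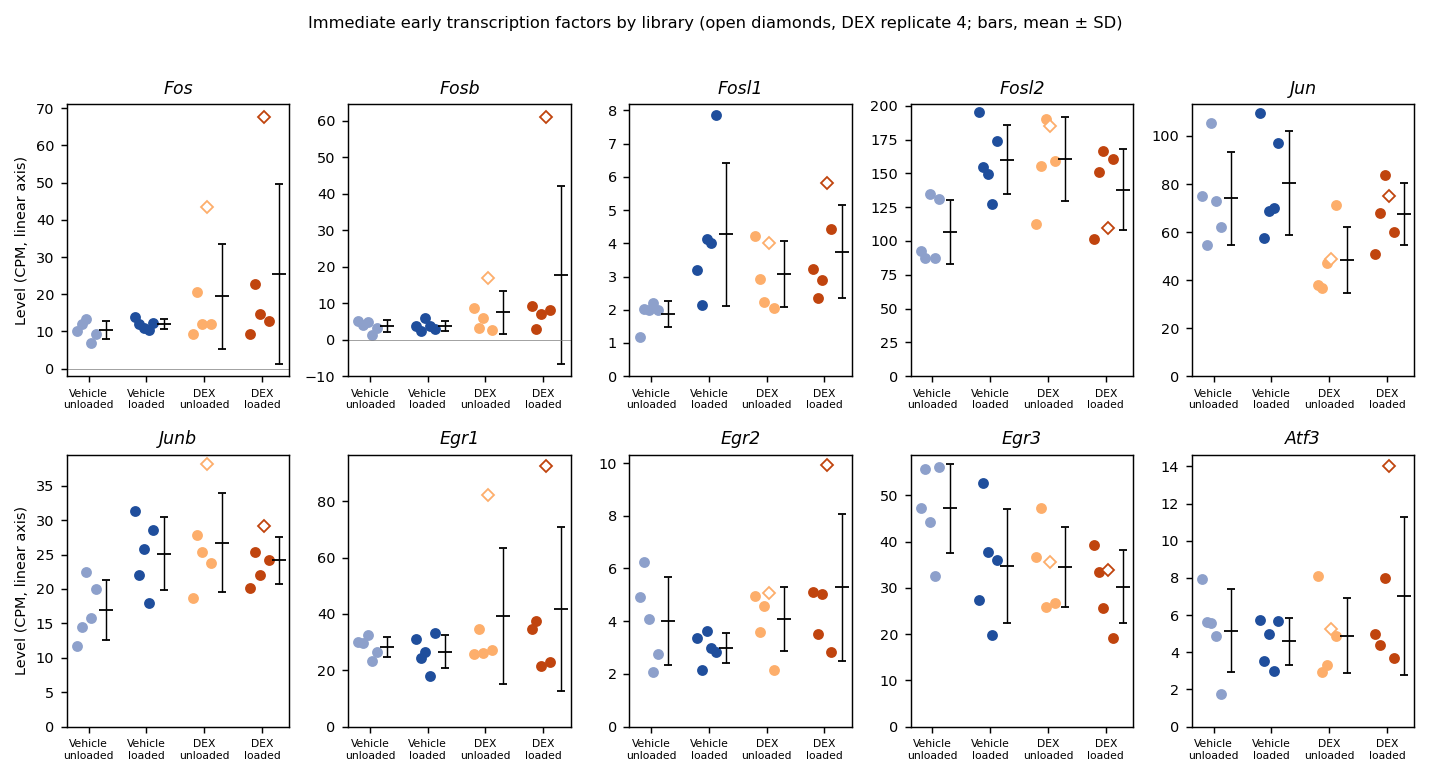
Level of each member (CPM, linear axis) in the 20 libraries by group, with open diamonds for DEX replicate 4 and bars for mean ± SD of 5 libraries. Fosl1, Fosl2 and Junb were mostly lower in unloaded vehicle libraries than in the other groups, and the diamonds stand above the other points for Fos, Fosb and Egr1.

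Fos, the founding member of the FOS family, was measured at 10.1, 11.98, 13.2, 6.95 and 9.24 CPM in unloaded and at 13.8, 12.02, 10.9, 10.5 and 12.3 CPM in loaded vehicle libraries. In DEX replicates 1 to 5 it was measured at 9.17, 20.6, 11.9, 43.3 and 11.99 CPM in unloaded and at 9.39, 22.6, 14.6, 67.7 and 12.7 CPM in loaded tibiae. The DEX values thus overlapped the vehicle values except in replicate 2, in loaded replicate 3 and, further up, in replicate 4 of both limbs.
Fosb, a FOS relative that is also spliced into a long-lived truncated form, was measured at 5.04, 4.14, 4.82, 1.16 and 3.19 CPM in unloaded and at 3.65, 2.44, 5.88, 3.62 and 2.85 CPM in loaded vehicle libraries. In DEX replicates 1 to 5 it was measured at 8.69, 3.27, 5.81, 16.9 and 2.62 CPM in unloaded and at 9.26, 3.04, 6.95, 61.1 and 8.23 CPM in loaded tibiae. Replicate 4 was again the highest library of both DEX groups.
Egr1 was measured at 23.2 to 32.4 CPM in unloaded and 18.1 to 33.2 CPM in loaded vehicle libraries. In DEX replicates 1 to 5 it was measured at 25.9, 34.6, 26.2, 82.3 and 27.4 CPM in unloaded and at 34.8, 37.5, 21.7, 92.6 and 23.1 CPM in loaded tibiae.

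The DEX replicate 4 libraries held the 2 highest of 20 values for Fos, Fosb and Egr1, that is for 3 of the 10 members. The same held for 171 of 21053 genes with a mean of at least 1 CPM (0.812%). Taken singly, the unloaded library was the highest of its group for 12.4% of these genes and the loaded one for 39.7%. In unloaded tibiae, replicate 4 stood above the median of the other DEX libraries by a ratio of 3.63 for Fos, 3.72 for Fosb and 3.08 for Egr1, and 0.105%, 0.0950% and 0.233% of genes had a higher ratio. In loaded tibiae the ratios were 4.96 for Fos, 8.05 for Fosb and 3.202 for Egr1, and 3.01%, 0.247% and 12.5% of genes had a higher one. Junb was at 1.56 times that median in the unloaded and 1.26 times in the loaded library, and Jun at 1.15 and 1.17 times. Fosl2 was at 1.18 and 0.706 times. The 2 libraries differed in background, with 1573 CPM on receptor genes in the unloaded one, within the range of its group, and 8611 CPM in the loaded one. Skeletal muscle markers summed to 1432 CPM in the unloaded replicate 4 library, the lowest of its group, and to 12611 CPM in the loaded one. The part of background, of muscle and of anything particular to these libraries or their handling in these values was not tested.

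**Figure D2:**
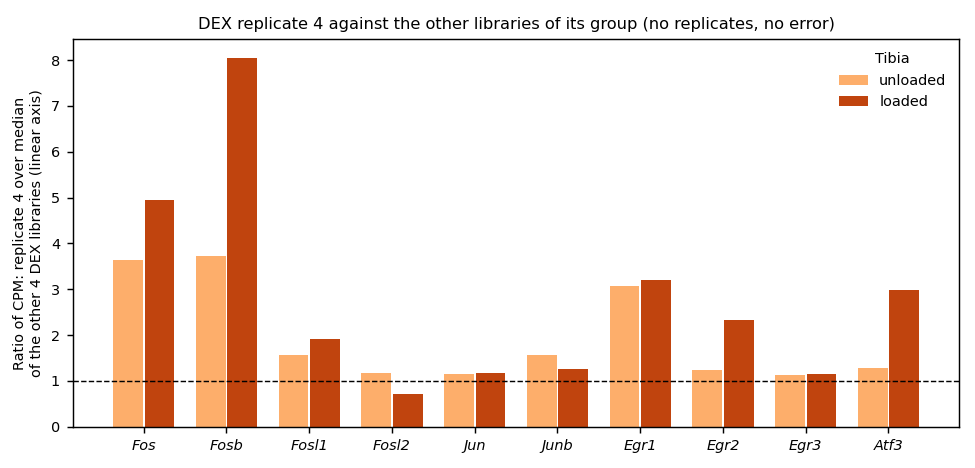
Ratio of the CPM of DEX replicate 4 to the median of the other 4 DEX libraries of the same limb, for each member (linear axis, dashed line at 1, single libraries without error). Fos, Fosb and Egr1 reach 3.08 to 8.05 in both limbs, while Jun stays at 1.15 and 1.17.

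Loading of vehicle-treated mice asked which members differ between loaded and unloaded tibiae at collection. No member passed an adjusted p of 0.05 with edgeR, and none of 17982 genes did (0%). Over all genes, DESeq2 called 141, of which 58 were higher and 83 lower, and edgeR without the filter on low counts called 50, but no member was among them. With an unadjusted p under 0.05 there were 3 of 10 members against 9.86% of all genes, namely Fosl1, Fosl2 and Junb, all with higher levels in loaded tibiae. The median log2FC was 0.03 over the members and 0.00 over all genes, with 5 members above 0 and 5 below.

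Fosl1 encodes FRA1, a FOS relative that supports matrix production by osteoblasts. It was measured at 1.19, 2.02, 1.99, 2.19 and 1.98 CPM in unloaded and at 3.19, 2.15, 4.13, 4.01 and 7.85 CPM in loaded vehicle libraries. The lowest loaded library lay just under the highest unloaded one and the other 4 lay above all unloaded libraries. The log2FC was 1.15 (SE 0.336, n = 5 against 5) and the adjusted p from edgeR was 0.342.
Fosl2 encodes FRA2, another FOS relative with roles in osteoblasts and osteoclasts. It was measured at 92.7, 87.7, 134.8, 87.4 and 130.8 CPM in unloaded and at 195.4, 154.4, 149.5, 127.5 and 173.8 CPM in loaded vehicle libraries. The groups overlapped through loaded replicate 5 alone, which lay under 2 unloaded libraries. The log2FC was 0.56 (SE 0.146, adjusted p = 0.286, and 0.0581 with DESeq2).
Junb encodes a JUN protein that can limit JUN activity. It was measured at 11.7, 14.5, 22.5, 15.7 and 20.03 CPM in unloaded and at 31.4, 22.0, 25.8, 17.98 and 28.5 CPM in loaded vehicle libraries. Its groups overlapped, with 3 loaded libraries above all unloaded ones. The log2FC was 0.54 (SE 0.182, adjusted p = 0.399).

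The members best known as load-responsive had log2FC near 0 in vehicle at this time, with 0.17 for Fos (SE 0.169, adjusted p = 0.719), -0.12 for Egr1 (SE 0.152, adjusted p = 0.780) and 0.09 for Jun (SE 0.196, adjusted p = 0.872). Fosb had a log2FC of -0.04, Atf3 of -0.20 and Egr2 of -0.47. Egr3, an EGR relative induced downstream of calcium signals, was at 47.3, 55.8, 44.3, 32.6 and 56.0 CPM in unloaded and 27.3, 52.7, 37.8, 19.8 and 36.0 CPM in loaded vehicle libraries. Its log2FC was -0.48 (SE 0.226, adjusted p = 0.511) and its groups overlapped. A level at a single time, whose distance from the last session is uncertain, does not show what came before it. In bulk bone, more cells of a type and more RNA per cell cannot be told apart.

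**Figure D3:**
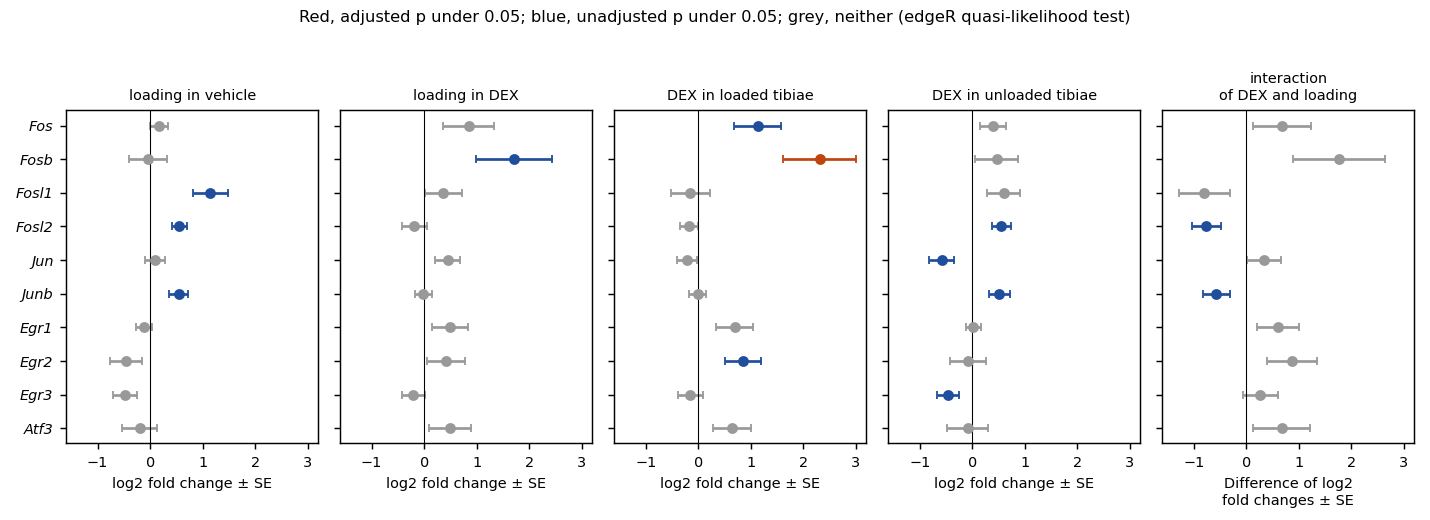
Log2 fold change ± SE of each member in the 4 comparisons and, in the last panel, the difference of the loading log2 fold changes between DEX and vehicle. Red marks an adjusted p under 0.05 (Fosb under DEX in loaded tibiae), blue an unadjusted p under 0.05 alone and grey neither.

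Genes that AP-1 is known to regulate were read beside the subunits. This list was chosen with earlier results of these data known. Its shares in each comparison are therefore descriptions, not tests, beside those of all genes. Of 12 listed target genes, 11 passed the filter on low counts (Il6 did not), and none passed the adjusted threshold for loading in vehicle. With an unadjusted p under 0.05 there were 9 of 11, against 9.86% of all genes, and 10 of 11 had a log2FC above 0, against 49.7% of all genes. The median log2FC was 0.58. Mmp3, which encodes the matrix protease stromelysin 1, was at 0.530 to 2.83 CPM in unloaded and 3.91 to 13.1 CPM in loaded vehicle libraries, with a log2FC of 2.20 (SE 0.417, adjusted p = 0.170, and 3.01e-04 with DESeq2). Mmp13, the collagenase of bone and hypertrophic cartilage, was at 121.5 to 191.7 CPM in unloaded and 220.0 to 309.7 CPM in loaded libraries, with a log2FC of 0.63 (SE 0.149, adjusted p = 0.229, and 0.0159 with DESeq2). Mmp9, a gelatinase of osteoclasts and neutrophils, was the only other target whose groups did not overlap (log2FC 0.58, adjusted p = 0.293). Across all genes, the groups did not overlap for 1.37%. Vegfa was the 1 target below 0, at -0.26.
Cell type markers were read in the same tibiae, and none passed the adjusted threshold. Chondrocyte markers summed to 414 to 1190 CPM in unloaded and 738 to 2311 CPM in loaded vehicle libraries, with 5 of 5 markers above 0 in log2FC. Osteoclast markers summed to 340 to 519 and 584 to 1153 CPM and did not overlap. Macrophage markers summed to 388 to 544 and 525 to 606 CPM, with 5 of 5 above 0. Other lists were lower in loaded tibiae. Skeletal muscle markers summed to 7977 to 35263 CPM in unloaded and 3793 to 18629 CPM in loaded libraries, with 7 of 7 below 0 and a median log2FC of -1.09. Osteoblast markers had 6 of 6 below 0 (median -0.31), 3 of them with an unadjusted p under 0.05, and osteocyte markers 4 of 4 (median -0.26). The part of these cell types in the values of Mmp3, Mmp9, Mmp13, Fosl1 and Fosl2 was not tested.

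Loading of DEX-treated mice gave no member past the adjusted threshold and none of 22541 genes (0%), with 0 also from DESeq2. Without unloaded DEX replicate 5, 39 genes passed, none of them a member. The unadjusted p was under 0.05 for 1 of 10 members, Fosb, against 4.25% of all genes. The log2FC of Fosb was 1.72 (SE 0.723, adjusted p = 0.733). It was 0.45 without loaded replicate 4, the library at 61.1 CPM. Fos had a log2FC of 0.85 (SE 0.479) and Egr1 of 0.49 (SE 0.339), which became 0.15 and 0.03 without that library. With loaded replicate 4 left out in place of unloaded replicate 4, the signs turned, to -0.40 for Fos, -0.13 for Fosb and -0.44 for Egr1.
Fosl2 and Junb, the members with the smallest p beside Fosl1 for loading in vehicle, had log2FC of -0.19 (SE 0.235) and -0.02 (SE 0.163) for loading in DEX. Fosl2 was at 112.4, 155.7, 190.6, 184.8 and 158.8 CPM in unloaded and 101.7, 150.8, 166.3, 109.9 and 160.7 CPM in loaded DEX replicates 1 to 5. Junb was at 18.7, 27.8, 25.3, 38.2 and 23.7 CPM in unloaded and 20.1, 25.4, 22.0, 29.1 and 24.3 CPM in loaded DEX libraries. For both genes the DEX groups overlapped. Fosl1 was at 2.06 to 4.22 CPM and 2.35 to 5.83 CPM, with a log2FC of 0.36 (SE 0.352). Jun was at 38.1, 36.8, 46.9, 48.9 and 71.1 CPM in unloaded and 50.9, 68.1, 83.8, 75.0 and 60.1 CPM in loaded DEX libraries, with a log2FC of 0.44 (SE 0.232, adjusted p = 0.733).

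The difference between the loading log2FC under DEX and under vehicle was tested as an interaction. No member passed and none of 23653 genes did (0%). Over all genes, DESeq2 called 51, of which 47 were higher and 4 lower, and edgeR called 54 without unloaded DEX replicate 5, with no member among them. The unadjusted p was under 0.05 for 2 of 10 members, against 12.1% of all genes. The difference was -0.76 for Fosl2 (SE 0.277, adjusted p = 0.382) and -0.57 for Junb (SE 0.260, adjusted p = 0.406), and it was -0.80 for Fosl1 (SE 0.481, adjusted p = 0.441). It kept its sign for these 3 genes in every fit run, at -0.89 to -0.40 for Fosl2, -0.78 to -0.33 for Junb and -1.10 to -0.45 for Fosl1. Fosb had a difference of 1.77 (SE 0.871, adjusted p = 0.416), which was 0.44 without loaded DEX replicate 4. Of the 11 AP-1 targets, 7 had an unadjusted p under 0.05 and the median difference was -0.74, against 0.07 over all genes. Mmp3 had a difference of -1.92 (SE 0.649, adjusted p = 0.362) and Plau, the urokinase gene, of -1.16 (SE 0.391, adjusted p = 0.362). For loading in DEX, 3 of the 11 targets were above 0 (all genes 52.1%), with a median of -0.21. This share went with level, since 84.3% of the lowest, 55.4% of the middle and 16.7% of the highest of 3 equal classes of all genes by level were above 0. In the interaction, 1 of the 11 targets was above 0, against 12812 of 23653 genes, with 83.55% of the lowest, 54.5% of the middle and 24.4% of the highest class. For the interaction, Fosl2 and Junb lay in the highest class and Fosl1 in the middle one. The targets were not assigned to classes. Chondrocyte markers had 4 of 5 and macrophage markers 3 of 5 with an unadjusted p under 0.05 in the interaction, with every marker of both lists below 0 (medians -2.23 and -0.54). Osteoclast markers had 2 of 5, also with every marker below 0 (median -0.56). Skeletal muscle markers had 7 of 7 with an unadjusted p under 0.05, all above 0 (median 2.27), and 7 of 7 were above 0 for loading in DEX (median 1.06). The part of these cell types in the values of the targets, Fosl2 and Junb was not tested.

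**Figure D4:**
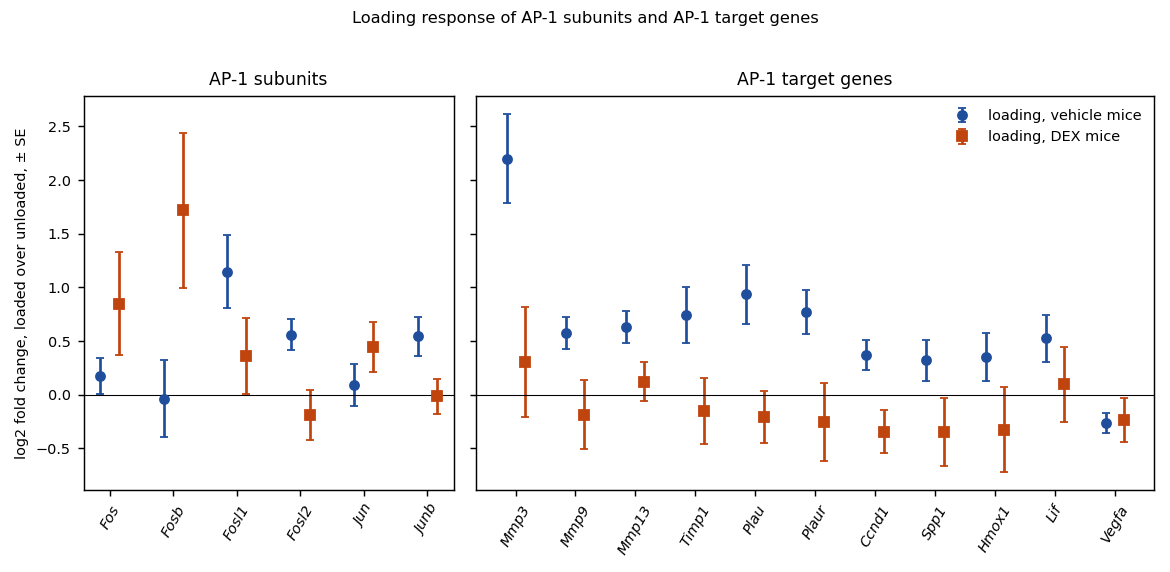
Log2 fold change of loaded over unloaded tibiae ± SE for the FOS and JUN members (left) and AP-1 target genes (right), in vehicle-treated (circles) and DEX-treated mice (squares). In vehicle, 10 of 11 targets lie above 0, and in DEX 3 do. The adjusted p was above 0.05 for each point.

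DEX against vehicle in loaded tibiae gave 1 of 10 members past the threshold, Fosb, which rose. Across all genes 4206 of 19780 passed (21.3%), 12.9% higher and 8.35% lower, so the share among the members was not above that of all genes. The unadjusted p was under 0.05 for 3 of 10 members, Fosb, Fos and Egr2, against 37.2% of all genes. Fosb had a log2FC of 2.31 (SE 0.695, n = 5 against 5, adjusted p = 0.0334, and 0.0139 with DESeq2). Its range was 2.44 to 5.88 CPM in vehicle and 3.04 to 61.1 CPM in DEX, and the groups overlapped. Without loaded DEX replicate 4 the log2FC was 0.93 and the call was lost (adjusted p = 0.0781). It was also lost without loaded vehicle replicate 1 (2.25, adjusted p = 0.0642), replicate 2 (2.13, adjusted p = 0.0681) or the unnumbered library (2.16, adjusted p = 0.0708). With background reads as a covariate the log2FC was -1.15 (adjusted p = 0.457). Background did not overlap between these groups, so the covariate and DEX can hardly be told apart.
Fos had a log2FC of 1.13 (SE 0.447, adjusted p = 0.0839). DESeq2 gave it an adjusted p of 0.0411, and without loaded DEX replicate 4 the log2FC was 0.35 (adjusted p = 0.274). Egr1 had a log2FC of 0.70 (SE 0.349, adjusted p = 0.162) and 0.16 without that library. Atf3 was at 5.74, 3.52, 5.01, 2.97 and 5.69 CPM in loaded vehicle and 4.97, 4.41, 8.01, 14.02 and 3.68 CPM in loaded DEX libraries, with a log2FC of 0.65 (SE 0.362, adjusted p = 0.207) and 0.22 without replicate 4. Egr2, known for its part in osteoclasts and myelin, was at 3.37, 2.15, 3.63, 2.97 and 2.85 CPM in loaded vehicle and 5.10, 3.53, 5.02, 9.92 and 2.82 CPM in loaded DEX libraries, with a log2FC of 0.85 and 0.48 without replicate 4. That library was the highest loaded DEX library for both Atf3 and Egr2, as it was for 39.7% of genes with a mean of at least 1 CPM.
Fosl2, Junb, Jun, Fosl1 and Egr3 had log2FC of -0.17, -0.01, -0.21, -0.15 and -0.15 in this comparison, with adjusted p-values of 0.442 to 0.966. When all genes tested were divided into 3 equal classes by level, 82.0% of the lowest class, which held Egr2 and Fosl1, had a log2FC above 0. The share was 46.2% in the middle class, which held Fos, Fosb, Junb and Atf3, and 22.6% in the highest. Cell type markers differed between the same libraries. Neutrophil markers summed to 4288 to 6426 CPM in loaded vehicle and 7453 to 18057 CPM in loaded DEX libraries, with 6 of 7 higher. Osteoblast markers summed to 42213 to 63777 and 3196 to 15235 CPM, with 5 of 6 lower, and chondrocyte markers to 738 to 2311 and 123 to 470 CPM, with 4 of 5 lower (median -2.59). B cell markers had 5 of 6 lower. The part of these cell types in the values of the members was not tested.

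DEX against vehicle in unloaded tibiae, 4 libraries against 5, gave no member past the threshold, whereas 1351 of 19738 genes passed (6.84%). The unadjusted p was under 0.05 for 4 of 10 members against 24.6% of all genes. Fosl2 had a log2FC of 0.56 (SE 0.190, adjusted p = 0.0983), Junb of 0.52 (SE 0.194, adjusted p = 0.126), Jun of -0.59 (SE 0.236, adjusted p = 0.151) and Egr3 of -0.46 (SE 0.204, adjusted p = 0.189). With unloaded DEX replicate 4 kept in, Fosl2 (0.60, adjusted p = 0.0325) and Junb (0.67, adjusted p = 0.0440) passed. Fosl2 also passed without unloaded DEX replicate 1 (0.69, adjusted p = 0.0419), and Jun without unloaded DEX replicate 5 (-0.88, adjusted p = 0.0353). With background reads as a covariate, Fosl2 had 0.88 (adjusted p = 0.00914) and Junb 0.88 (adjusted p = 0.00876). Unloaded vehicle libraries were the control both here and for loading in vehicle, so the values of Fosl2 and Junb in these comparisons are not independent. In group means, Fosl2 was at 107 ± 24.0 CPM in unloaded vehicle, 160 ± 25.7 in loaded vehicle, 160 ± 31.0 in unloaded DEX and 138 ± 29.9 in loaded DEX libraries (SD, n = 5 each). Junb was at 16.9 ± 4.35, 25.1 ± 5.29, 26.7 ± 7.21 and 24.2 ± 3.43 CPM in the same order. The unloaded DEX means include replicate 4, which the tests left out. Without it they were 154 ± 32.1 CPM for Fosl2 and 23.9 ± 3.85 CPM for Junb (SD, n = 4). For both genes the unloaded vehicle group had the lowest mean.
Other members had a log2FC of 0.60 (Fosl1), 0.46 (Fosb), 0.39 (Fos), 0.02 (Egr1), -0.08 (Egr2) and -0.09 (Atf3), with adjusted p-values of 0.259 to 0.937. Neutrophil markers summed to 5039 to 7680 CPM in unloaded vehicle and 9314 to 17123 CPM in unloaded DEX libraries, with 5 of 7 higher. Osteoblast markers summed to 29308 to 97569 and 3956 to 23723 CPM, with 3 of 6 lower, and B cell markers to 116 to 182 and 18.8 to 101 CPM, with 3 of 6 lower. Skeletal muscle markers summed to 7977 to 35263 and 1432 to 16630 CPM, and all 7 had a log2FC below 0 (median -1.88), 6 with an unadjusted p under 0.05 and none past the adjusted threshold. These sums cover all 5 unloaded DEX libraries, and the 1432 CPM of muscle markers belong to replicate 4, which the log2FC leave out. Osteoclast markers had 5 of 5 above 0 (median 0.63), 1 with an unadjusted p under 0.05. The part of these cell types in the values of Fosl2, Junb, Jun and Egr3 was not tested.

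The members were set beside 6 lists of related genes. These lists were chosen with earlier results of these data known, so their counts are descriptions. Of all genes, 12.9% passed as higher and 8.35% as lower under DEX in loaded tibiae, and 2.86% and 3.99% in unloaded tibiae. Counts of a list are to be read against these shares. In loaded tibiae direction went with level, since 82.0% of the lowest and 22.6% of the highest class of all genes had a log2FC above 0. The genes of the lists were not assigned to these classes. With background reads as a covariate, 30 genes passed there in place of 4206. Among 13 relatives and corepressors of AP-1 and EGR, Jund, the JUN protein with the steadiest expression, fell under DEX in loaded tibiae (log2FC -0.61, SE 0.160, adjusted p = 0.0206) as 1 of 12 tested, a share near that of all genes. Nab2, which encodes a corepressor of EGR proteins, fell in unloaded tibiae (-0.56, SE 0.142, adjusted p = 0.0378) as 1 of 11 tested. For loading in vehicle, none of 11 passed and Jdp2, an AP-1 repressor, was at 0.46 (adjusted p = 0.455).
Of 36 other immediate early genes, none passed for loading in either treatment. The lowest p in vehicle belonged to Ptgs2, which encodes cyclooxygenase 2. It was at 0.644 to 2.20 CPM in unloaded and 2.38 to 9.12 CPM in loaded vehicle libraries, without overlap (log2FC 1.81, SE 0.448, adjusted p = 0.247, and 0.0208 with DESeq2). Socs3, a feedback inhibitor of cytokine signals, followed (0.93, SE 0.256, adjusted p = 0.316). Under DEX in loaded tibiae 2 of 36 rose and 5 fell, so the share that passed was not above that of all genes (21.3%). Ptgs2 fell (-1.89, SE 0.439, adjusted p = 0.0136), as did the orphan nuclear receptor gene Nr4a2 (-1.11, SE 0.230, adjusted p = 0.00892) and Ccn1, a matricellular target of YAP and SRF (-0.89, SE 0.237, adjusted p = 0.0216). Nr4a1, a relative of Nr4a2, rose (0.81, SE 0.252, adjusted p = 0.0385). Without loaded DEX replicate 4, 2 were higher and 4 lower, and Nr4a1 no longer passed (0.59, adjusted p = 0.0916). Under DEX in unloaded tibiae, where Ptgs2 was not tested, 1 of 35 rose and 3 fell, against 2.86% and 3.99% of all genes. Socs3 rose (0.89, SE 0.236, adjusted p = 0.0428), and Ccn1 (-1.24, SE 0.256, adjusted p = 0.0190), Nr4a2 (-1.15, SE 0.228, adjusted p = 0.0160) and the ERK phosphatase gene Dusp5 (-0.96, SE 0.262, adjusted p = 0.0486) fell. Osteoblast markers were lower and neutrophil markers higher under DEX in both limbs, and chondrocyte markers were lower in loaded tibiae. The part of these cell types in the values of this list was not tested.
AP-1 targets fell in 3 of 11 cases under DEX in loaded tibiae, against 8.35% of all genes, and none rose. Mmp3 had a log2FC of -2.39 (SE 0.406, adjusted p = 0.00333), the protease inhibitor gene Timp1 of -2.02 (SE 0.291, adjusted p = 0.00156) and the cyclin gene Ccnd1 of -1.07 (SE 0.190, adjusted p = 0.00412). Their groups did not overlap, as for 16.1% of all genes. All 3 also passed without loaded DEX replicate 4, where 15.2% of all genes did. The osteoblast and chondrocyte markers that were lower and the neutrophil markers that were higher in loaded DEX tibiae moved with them, and their part in these values was not tested. In unloaded tibiae Timp1 fell (-1.13, SE 0.267, adjusted p = 0.0286), whereas Plaur, the urokinase receptor gene (1.47, SE 0.286, adjusted p = 0.0151), and Mmp9 (0.96, SE 0.227, adjusted p = 0.0292) rose. Neutrophils express Plaur and Mmp9, and neutrophil markers were higher in the same libraries, but their part in these values was not tested.
Of 16 upstream regulators, 4 fell under DEX in loaded tibiae, against 8.35% of all genes, and none rose. They were Fhl2 (-0.74, adjusted p = 0.0229), a cofactor of SRF and AP-1, the ternary complex factor genes Elk3 (-0.63, adjusted p = 0.0152) and Elk4 (-0.56, adjusted p = 0.0205), and the kinase gene Mapk9 (-0.41, adjusted p = 0.0323). Without loaded DEX replicate 4, 3 of 16 passed and Mapk9 did not (-0.36, adjusted p = 0.0539). The shifts of osteoblast, chondrocyte and neutrophil markers lie beside these values too, and their part was not tested. None passed in unloaded tibiae, where Mrtfb (-0.45, adjusted p = 0.0533) and Mapk9 (-0.42, adjusted p = 0.0575) had the lowest p. Of 6 heat shock genes, Hspb1 rose in loaded tibiae (1.29, SE 0.313, adjusted p = 0.0157). Of 5 glucocorticoid-induced genes, Zbtb16 (1.01, adjusted p = 0.00930) and Fkbp5 (0.87, adjusted p = 0.00777) rose in loaded tibiae, where 2 of the 5 had a log2FC below 0. In unloaded tibiae none passed as higher, 4 of the 5 had a log2FC below 0, and Sgk1 fell (-0.63, adjusted p = 0.0318).

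Levels of the members did not run together as 1 group. Over 45 pairs of members, the median Spearman correlation across the 20 libraries was 0.168, 8 pairs were above 0.5 and 12 were below 0. Without the DEX replicate 4 libraries the median was 0.0155 and 5 pairs were above 0.5. Fosb and Egr2 (0.805), Fos and Junb (0.753) and Fosl2 and Junb (0.723) were the closest. Over the 18 other libraries these were 0.752, 0.674 and 0.831. The libraries share depth, background and cell makeup, so these values are descriptions.
Among the 10 genes whose level followed the mean of the members most closely were Dcun1d3 (rho 0.809), Ptprn (0.808), Hhipl1 (0.802), Gm43737 (0.797) and Coq8b (0.791), followed by Sdk1, Mypop, Galnt16 and B3gnt3 (0.785 to 0.773). After each level was centred on its group mean they were Mypop (0.8286), Aldh1a2 (0.812), Nr4a2 (0.806), Gm47391 (0.806), 4930466I24Rik (0.798), Gm48062 (0.795), Kctd13, Gm38134, Radil and Gm43176, and 1 gene was in both lists of 10. Without the DEX replicate 4 libraries the centred list of 10 was led by Aldh1a2 and 2810428J06Rik (0.771 each) and still held Mypop, Gm38134, Gm47391 and Nr4a2, but not 4930466I24Rik, Gm48062, Kctd13, Radil or Gm43176, so much of it rests on those libraries. For Junb alone, Socs3 was closest (0.889). For Fosl2 alone it was Atxn7l3 (0.937), followed by the osteoclast proton pump gene Tcirg1 (0.929), for Fos Tmem268 (0.768) and for Egr1 Gm43795 (0.792).

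**Figure D5:**
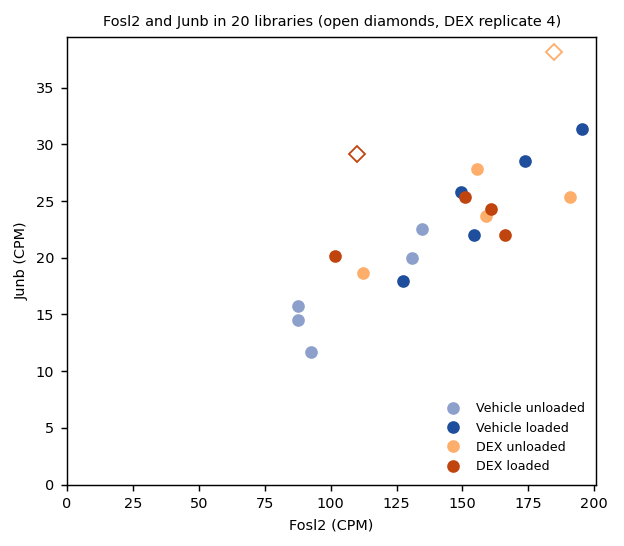
Level of Junb against that of Fosl2 (CPM, linear axes) in the 20 libraries, coloured by group, with open diamonds for DEX replicate 4. The 5 unloaded vehicle libraries lie at 87.4 to 134.8 CPM of Fosl2 and 11.7 to 22.5 CPM of Junb, toward the lower left.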

How the data were processed

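RNA-seq of 20 mouse tibia libraries was used. Per the labels, a stranded SMARTer total RNA kit for low input was used, and the submitters' processing notes name STAR 2.7.10a, RSEM 1.2.28 and GRCm38. The authors deposited expected counts per gene, not scaled for depth, which were rounded to whole numbers here. Genes were filtered with filterByExpr, normalized with TMM and tested with the edgeR 4.0.16 quasi-likelihood F test in R 4.3.3, with Benjamini-Hochberg adjustment over all genes tested and a threshold of 0.05. The SE was taken from F, as the size of the log2FC over the root of F. DESeq2 1.42.0 was the alternative test. The members and lists were chosen with earlier results of these data known. Named genes are all members and, from each list and comparison, up to 4 with the largest log2FC among those that passed, or else at most the 2 with the lowest p. Not every gene that meets this rule is named, and 2 are not reported here. Symbols come from GENCODE release M21, with 54409 of 54446 identifiers matched. Alternatives were other tests, filters, scalings and library sets, replicate blocks, and background reads as a covariate. Leaving out both DEX replicate 4 libraries and blocking on all 5 column numbers were chosen after seeing the data. Totals of 4641437 to 13032018 counts limit the precision of low genes. The tests were tested on simulated data. Replicate numbers were not taken to pair the limbs.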

Additional observations from a re-analysis of the deposited data

Results flagged for a closer look

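Of 40 combinations of a member and a group, 5 held a library whose gap to the nearest of the others was large for the range of its group by Dixon's criterion, which chance meets in about 1 in 20 groups. Of these, 4 came from DEX replicate 4. In loaded DEX tibiae it had 67.7 CPM of Fos (nearest 22.6), 61.1 CPM of Fosb (nearest 9.26) and 92.6 CPM of Egr1 (nearest 37.5). In unloaded DEX tibiae it had 82.3 CPM of Egr1 (nearest 34.6). The other was a low value, with 1.19 CPM of Fosl1 in unloaded vehicle replicate 1 (nearest 1.98), from 9 counts.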

How the results depend on the processing

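Each comparison was repeated under other tests, filters, scalings and library sets. Of 594 results of a member under these, 542 kept their direction and their side of the threshold, and of 570 with 1 library left out, 538 did. Some settings were the same fit under another name and were counted more than once, so these totals overstate the separate checks. Only Fosb under DEX in loaded tibiae passed as reported, so for every other result keeping its side meant still not passing. No member passed for loading in vehicle, loading in DEX or the interaction in any of them. For DEX in loaded tibiae, the count of members was 2 (Fos and Fosb) with DESeq2, with no filter except 1 count in total and with all 4 groups in 1 model. It was 0 with robust estimation, with background as a covariate, without loaded DEX replicate 4 and without DEX replicates 1 and 4 of both limbs. With 1 library left out it was 0 to 2. Leaving out both DEX replicate 4 libraries was here the same fit as leaving out the loaded one. For DEX in unloaded tibiae the count of members was 2 (Fosl2 and Junb) with all 20 libraries and with the covariate. It was 1 (Fosl2) without DEX replicates 1 and 4, and 0 to 1 with 1 library left out. The fit without DEX replicates 1 and 4 was here the same as that without unloaded replicate 1. Over all genes, the count for DEX in loaded tibiae was 30 with the covariate, 9016 without the filter, where the median log2FC was 0.77, 8446 with all 4 groups in 1 model, 2203 with at least 10 counts in every library, 2326 with and 1120 without the replicate block on its libraries, 2010 without DEX replicates 1 and 4, 2696 without the unnumbered loaded vehicle library and 4206 as reported. For DEX in unloaded tibiae it was 129 without unloaded DEX replicate 3, 828 without its replicate 2, 530 and 830 without unloaded vehicle replicates 5 and 4, 520 with and 566 without the replicate block on its libraries, 2411 with DESeq2, 2591 with the covariate, 2922 with all 20 libraries and 1351 as reported. The cause of these changes was not tested.

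Each mouse gave both limbs, but no source used here says that a number marks a mouse. Same-numbered libraries deviated together at r of -0.30 to 0.34 in vehicle and 0.03 to 0.36 in DEX, over 0.1 for 2 and 3 of 5 numbers, so the numbers were not taken as pairs, and a pairing remains possible. Of 5 numbers each, 0 and 2 correlated best with their own. By number, Fosl1, Fosl2 and Junb were higher in the loaded library for 5 of 5 in vehicle and Egr3 for 0 of 5, and in DEX Fos was for 5 of 5. For DEX against vehicle, the block joined a DEX and a vehicle library of the same number, which came from different mice. Those blocked fits, with their gene counts above, therefore say nothing about a pairing of limbs. With that block, the count of members for DEX in loaded tibiae was 1, and without it on the same libraries 0. Directions turned with the block for Fosb (0.059) and Jun (-0.047) under loading in vehicle, Fosl1 (0.20) and Junb (0.050) under DEX in loaded tibiae and Fos (-0.027) in the interaction. On the same libraries without the block they turned for Jun (-0.036), Fosl1 (0.24) and Junb (0.032), and with all 5 numbers as a block for Fosb (0.0046) under loading in vehicle.

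Other directions turned as follows. With background as a covariate, they did for Fosb (0.12) and Jun (-0.034) under loading in vehicle and for Fosl2 (0.014), Junb (0.038) and Egr2 (-0.024) under loading in DEX. They also did for Fos (-0.12), Fosb (-1.15), Fosl2 (0.31), Junb (0.028), Egr1 (-0.25), Egr2 (-0.33) and Atf3 (-0.28) under DEX in loaded and for Fosb (-0.062) under DEX in unloaded tibiae. When the loaded library of DEX replicate 4 was dropped and the unloaded one kept, Fos (-0.40), Fosb (-0.13) and Egr1 (-0.44) turned under loading in DEX, and Fos (-0.58), Fosb (-0.10) and Egr1 (-0.33) in the interaction. Without DEX replicates 1 and 4, Egr1 (-0.10) turned under loading in DEX, Fosl2 (0.017) under DEX in loaded tibiae, and Fos (-0.031) and Egr1 (-0.0066) in the interaction. Without both replicate 4 libraries Fos (-0.054) turned in the interaction. Without the filter, Fosb (0.0042) turned under loading in vehicle and Egr1 (-0.033) under DEX in unloaded tibiae. With at least 10 counts in every library Junb turned under loading in DEX (0.062) and DEX in loaded tibiae (0.11). In unloaded tibiae under DEX, Egr1 (-0.028) turned with all 4 groups in 1 model and Egr2 (0.015) with all 20 libraries.

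With 1 library left out, log2FC ranged for loading in vehicle from -0.26 to 0.11 (Fosb), -0.030 to 0.25 (Jun) and -0.42 to 0.017 (Atf3), and for loading in DEX from -0.13 to 0.062 (Junb). For DEX in loaded tibiae it ranged from -0.38 to 0.14 (Fosl1) and -0.15 to 0.044 (Junb), and for DEX in unloaded tibiae from -0.088 to 0.079 (Egr1), -0.24 to 0.16 (Egr2) and -0.42 to 0.12 (Atf3). In the interaction Fos ranged from -0.054 to 0.91. None of these values passed the threshold. Members near 10 counts, such as Fosb and Fosl1, are limited by depth, and the stricter filter removed some of them.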
